A study of Canis lupus familiaris with 34 samples.

Results

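The proteasome genes of dog osteosarcoma were taken as all rows of the expression table whose name starts with PSM, a letter from A to G and a digit. The rule found 38 of 23988 rows. Of these, 37 encode the proteasome, its activators, its inhibitor or its assembly factors. The remaining row, PSMC3IP, matches by name alone, since its product is a cofactor of meiotic recombination. With the name PSME3IP1 left out, a gene catalogue of the dog lists 49 such names. Of them 11 (PSMA1, PSMA2, PSMA4, PSMB3, PSMB7, PSMB8, PSMB9, PSMD4, PSMD5, PSMD9 and PSMG4) were not analysed here, because no row carries their symbol and 9653 rows carry an Ensembl identifier in place of a symbol.

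The proteasome degrades proteins that have been tagged with ubiquitin. Its 20S core is a barrel of alpha and beta rings whose proteolytic sites lie on the beta subunits PSMB5, PSMB6 and PSMB7, and its 19S cap recognises, unfolds and feeds in substrates. In cells exposed to interferon gamma, and constantly in many leukocytes, the beta subunits PSMB8, PSMB9 and PSMB10 take the place of PSMB5, PSMB6 and PSMB7 and form the immunoproteasome, which favours peptides suited to MHC class I. PSME1 and PSME2 form an activator that interferon gamma also induces and that binds the ends of the core. Of the immune catalytic subunits PSMB10 alone had a row, and its constitutive counterpart PSMB7 had none, so the immune side rests on PSMB10, PSME1 and PSME2 and the constitutive catalytic side on PSMB5 and PSMB6.

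The study sequenced RNA from 2 cell lines of osteosarcoma, OSCA.8 and OSCA.78, 1 metastasis (DOS.6M), 1 cultured osteoblast sample (CNOB) and 30 libraries of primary osteosarcoma. The submitters state that the lines came from earlier primary tumours, and the labels give no treatment, genotype or age. All libraries carry the breed label Golden Retriever, although the submitters' description of the tumours also names Rottweilers. Each line, the metastasis and the osteoblast culture is 1 library. The title number 46 belongs to a pair of primary tumour libraries whose deviations from the tumour mean correlated at r = 0.73 over the tested genes, against at most 0.23 with any other tumour. The pair was averaged, which left 29 tumours. Nothing in the labels says how the 2 lines were cultured or whether samples were prepared separately, so p-values measure the spread between these samples, part of which may be technical.

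Values are FPKM, which count sequenced fragments per length of transcript and per size of the library, and the number of fragments behind each value is unknown. Levels of different genes are set side by side below only as a rough guide, since how reads from near-identical gene copies were assigned is not stated. Column sums lay between 479053 and 1418308 FPKM. Tests were run on log2(FPKM + 1), a scale that understates changes of low genes, over the 15165 genes that reached 1 FPKM in 2 or more libraries. The filter passed 36 of the 38 rows. Macrophage genes were low in all cultures. The 10 measured genes of that list summed to 1.56 FPKM in OSCA.8, 2.56 FPKM in OSCA.78, 348 FPKM in the metastasis, 24.8 FPKM in the osteoblast culture and 84.1 to 1530 FPKM (median 578) in the 30 primary tumour libraries. The 7 measured genes of bone forming cells, dominated by COL1A2, summed to 3078 FPKM in OSCA.8, 2078 FPKM in OSCA.78, 2991 FPKM in the metastasis, 5579 FPKM in the osteoblast culture and 3559 to 26969 FPKM in the primary tumour libraries. IBSP, a bone matrix protein, reached 1.96 FPKM in OSCA.8, 0.717 FPKM in OSCA.78 and 6.95 FPKM in the osteoblast culture, below the lowest tumour at 48.6 FPKM.

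In the primary tumours the core and cap genes were all detected, at levels that differed widely between genes. The 25 constitutive subunits that passed the filter had tumour medians between 1.64 FPKM (PSMC1) and 356 FPKM (PSMB4), with a median of 68.5 FPKM over the subunits. Among the core's alpha subunits, which form the outer rings and the gate, PSMA3 had a tumour median of 97.1 FPKM, PSMA7 of 80.6 FPKM, PSMA5 of 40.3 FPKM and PSMA6 of 15.05 FPKM. Among the beta subunits PSMB4 led with 356 FPKM, followed by PSMB2 with 180 FPKM, PSMB6 with 166 FPKM, PSMB1 with 55.2 FPKM and PSMB5 with 46.6 FPKM. The proteins are built into the particle in equal numbers, and the transcript levels were far from equal.

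PSMB10, the one immune catalytic subunit with a row, lay below both of its measured constitutive neighbours in most tumours. Its level was 14.3 FPKM in the lowest tumour (DOS.84), 30.7 FPKM at the median and 67.8 FPKM in the highest (DOS.57). PSMB10 exceeded PSMB5 in 2 of 29 tumours and exceeded PSMB6 in 0 of 29. PSME1 and PSME2, whose proteins form 1 ring, had tumour medians of 18.8 FPKM and 70.7 FPKM. PSME1 ranged from 11.2 to 61.4 FPKM and PSME2 from 44.4 to 345 FPKM, and both were highest in tumour DOS.56. The next tumour below DOS.56 had 37.3 FPKM of PSME1, and the next for PSME2 had 196 FPKM.

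Among the 6 ATPases that form the motor at the base of the cap, PSMC5 (median 133 FPKM), PSMC6 (107 FPKM), PSMC4 (77.9 FPKM) and PSMC2 (64.9 FPKM) stood far above PSMC3 (4.54 FPKM) and PSMC1 (1.64 FPKM). The ATPases occur once each in the ring, and PSMC1 did not exceed 3.62 FPKM in any of the 29 tumours, the metastasis, the lines or the osteoblast culture. The sources used here do not state how reads from near-identical gene copies were assigned, and the part of such reads in the low values was not tested. The 10 measured non-ATPase cap subunits had medians between 26.2 FPKM (PSMD11) and 168 FPKM (PSMD8).

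PSME3, which forms a nuclear activator of the core, had a tumour median of 34.1 FPKM, and PSME4, an activator linked to acetylated histones and sperm development, had 20.2 FPKM. PSMF1, a protein that binds the core and inhibits it in the test tube, had 44.0 FPKM. The assembly chaperones PSMG1, PSMG2 and PSMG3, which build the alpha ring, and PSMD10, which chaperones the cap's base and is also known as gankyrin, had medians between 25.8 and 37.2 FPKM. The tissue-restricted core subunits did not pass the filter. PSMA8, the alpha subunit of male germ cells, did not exceed 0.0596 FPKM in any primary tumour, and PSMB11, the catalytic subunit of the thymic cortex, did not exceed 0.664 FPKM.

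**Figure D1:**
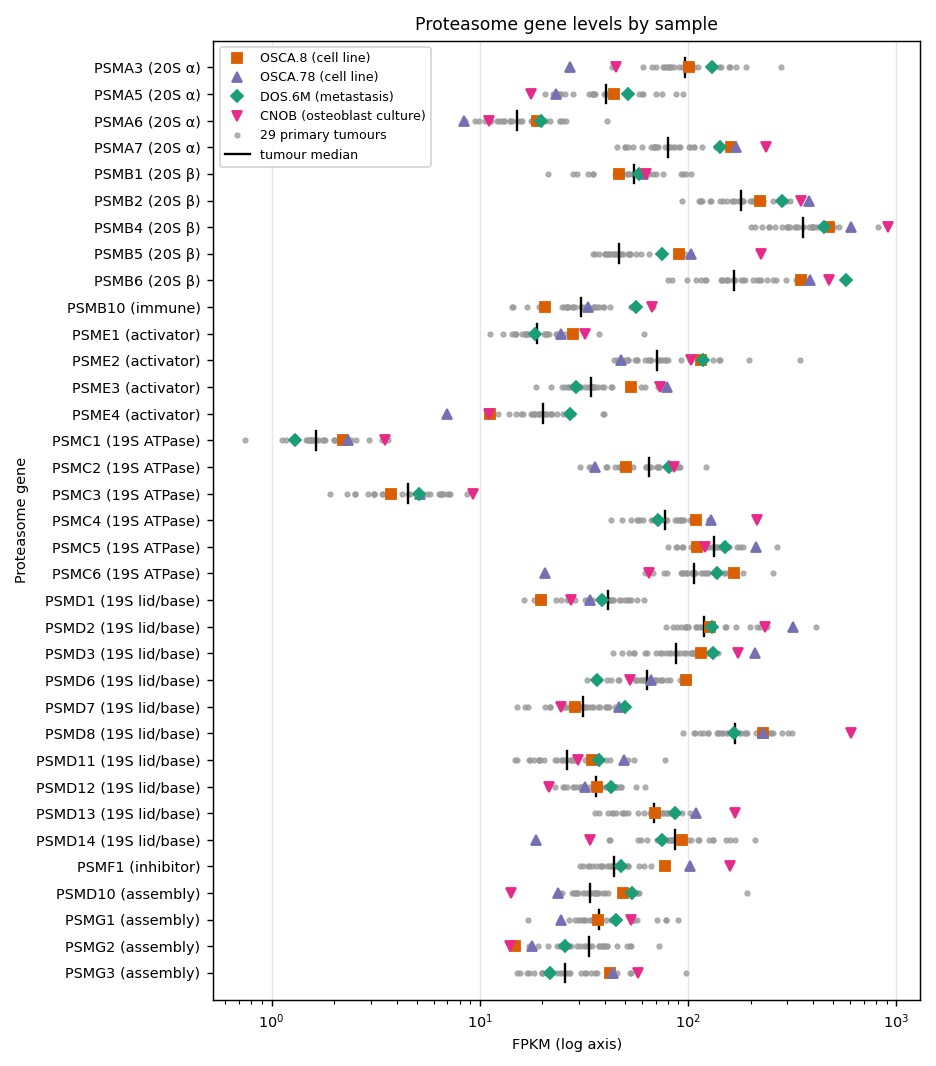
Level of each of the 35 proteasome genes that passed the filter in every sample, in FPKM on a log axis, grouped by role. Grey points are the 29 primary tumours, black bars their medians, and coloured symbols the 2 lines, the metastasis and the osteoblast culture. PSMB4 had the highest tumour median (356 FPKM), and PSMC1 and PSMC3 lay far below the other ATPases.

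The proteasome genes varied somewhat less between tumours than genes at large. Their median standard deviation on the log2 scale was 0.47, against 0.54 for all 15165 genes, and 65.4% of all genes varied more than the median proteasome gene. PSMF1 was the steadiest (SD 0.27), with 30.3 FPKM in the lowest tumour, 44.0 FPKM at the median and 66.3 FPKM in the highest, and 1.78% of all genes had a smaller SD. Behind it came the ATPases PSMC1 (SD 0.31, where the low level compresses the scale) and PSMC5 (SD 0.37, with 80.5, 133 and 268 FPKM in the lowest, median and highest tumour). PSME4 had nearly the same SD as PSMC5.

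The widest spread belonged to PSMC3IP (SD 0.88), which is no subunit and ran from 1.35 FPKM over a median of 6.30 FPKM to 35.1 FPKM. Of the activators PSME2 varied most (SD 0.67). Of the remaining members PSMG3 (SD 0.59) had 15.1, 25.8 and 98.0 FPKM in the lowest, median and highest tumour, and PSMA5 (SD 0.58) had 20.5, 40.3 and 94.7 FPKM. Single tumours made some of these ranges. PSMD10 reached 191 FPKM in tumour DOS.24, against 58.0 FPKM in the next tumour and a median of 33.8 FPKM. PSMG3 reached 98.0 FPKM in DOS.112 and 53.4 FPKM in the next tumour.

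Constitutive subunits varied together from tumour to tumour, with a higher median correlation in the core than in the cap. Over the 29 tumours the median Pearson correlation was 0.42 over the 300 pairs of the 25 constitutive subunits, of which 290 were positive. It was 0.63 over the 36 pairs within the core, 0.38 over the 15 pairs of ATPases, 0.30 over the 45 pairs of non-ATPase cap subunits and 0.44 over the 144 pairs of a core with a cap subunit. With all tested genes the proteasome genes had a median correlation of -0.02. The genes at large had a median tumour level of 8.56 FPKM, against 45.3 FPKM for the proteasome genes. Whether other sets of genes at similar levels vary together as much was not tested. These correlations are descriptions over the same 29 libraries, which share their scaling.

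The closest pair was the ATPase PSMC4 and the cap subunit PSMD8 at r = 0.92, followed by PSMA7 with PSMD8 at r = 0.85. At the other end stood PSMD11 and PSMD13, both of the cap's lid, at r = -0.32. The other activators and the inhibitor had correlations near 0 with the core. The median correlation with the 9 core subunits was 0.04 for PSME3, -0.14 for PSME4 and 0.09 for PSMF1.

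Because the subunits moved together, tumours could be placed by the median deviation of the 25 constitutive subunits from their tumour means on the log2 scale. It was 0.73 in DOS.101 and 0.58 in DOS.8, where all 25 of 25 subunits lay above their means. It was -0.55 in DOS.115, where 0 of 25 did, and -0.56 in DOS.110, where 1 did. The same median over all tested genes lay between -0.09 and 0.003 in every tumour. Of the 35 members that passed the filter, PSMC3IP aside, DOS.101 was the highest tumour for 8 and DOS.115 the lowest for 7.

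The 37 rows other than PSMC3IP took between 0.208% (DOS.115) and 0.785% (DOS.101) of the summed FPKM of a primary tumour library. They took 0.597% in OSCA.8 and 0.644% in OSCA.78. In DOS.110, DOS.115, DOS.32, DOS.75 and DOS.81 a single gene took between 16.1% and 27.1% of the summed FPKM, and the constitutive median deviation was below 0 in all of them, from -0.56 to -0.10. The part of such genes in the low proteasome levels and in the correlations was not tested. Scaled to a common upper quartile, the core's median correlation was 0.65, and after quantile normalisation it was 0.54.

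**Figure D2:**
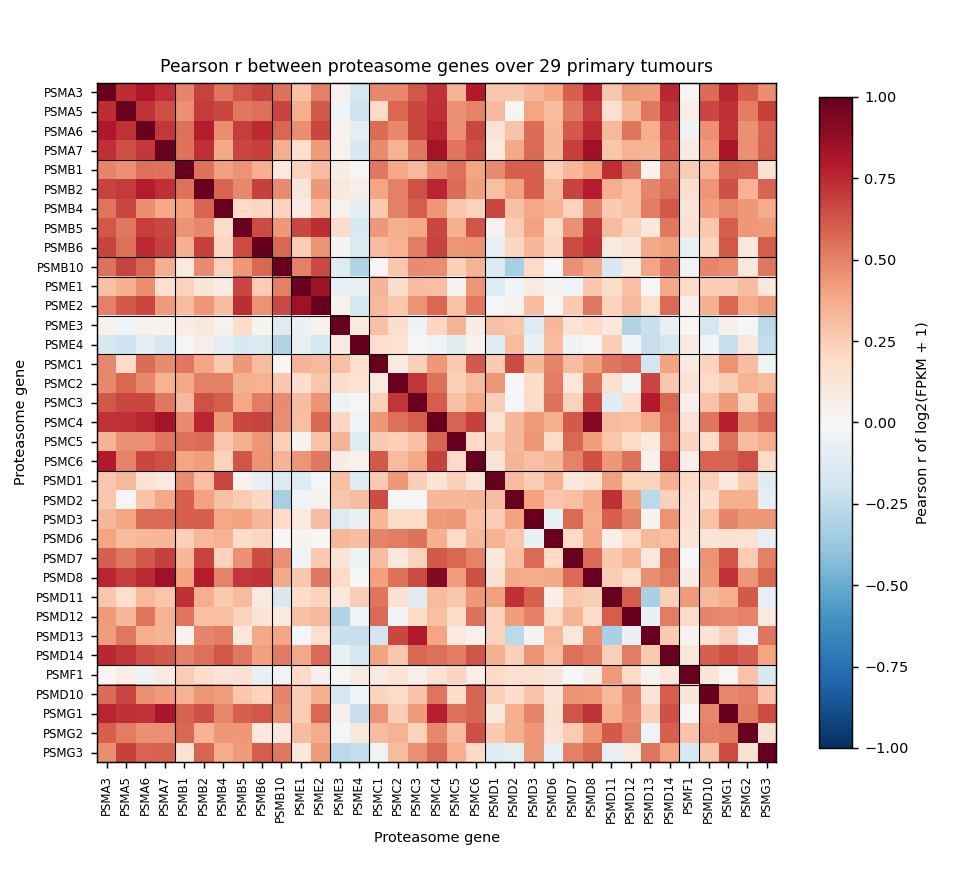
Pearson correlation of log2(FPKM + 1) between each pair of proteasome genes over the 29 primary tumours, ordered by role. Colour gives r. The block of core subunits (median r 0.63) stands out against the rows of PSME3, PSME4 and PSMF1.

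PSMB10 correlated with the core in these tumours as well as with the interferon-induced activator. Its median correlation was 0.47 with the 9 constitutive core subunits and 0.25 with the 16 cap subunits. Among the 15 pairs of PSMB5, PSMB6, PSMB10, PSME1, PSME2 and PSME3, 9 passed the threshold of 0.05 for the adjusted permutation p (two-sided, 100000 permutations, Benjamini-Hochberg over the 15), all of them positive. PSMB10 correlated with PSME2 at r = 0.66 (p = 0.00011, adjusted 0.00055; rho 0.70, p = 5e-05) and with PSME1 at r = 0.50 (p = 0.00583, adjusted 0.0125; rho 0.52, p = 0.00445). With the 2 tumours farthest from the PSMB10 median left out these were 0.64 and 0.48, both still past the threshold.

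PSMB10 also correlated with both constitutive catalytic subunits. With PSMB6 it was r = 0.58 (p = 0.00087, adjusted 0.00217; rho 0.57, p = 0.00121), and 0.44 with an adjusted permutation p of 0.0569 without the 2 farthest tumours. With PSMB5 it was r = 0.43 (p = 0.0182, adjusted 0.0303; rho 0.44, p = 0.0177), and 0.33 with an adjusted permutation p of 0.167 without the 2 farthest. Neither Pearson correlation passed without those tumours, and by Spearman's rho over all 29 both passed (adjusted permutation p 0.00454 and 0.0331). Whether any of these correlations differ from each other was not tested.

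PSME1 and PSME2 gave the closest relation of the family, r = 0.85 (p = 1e-05, the smallest that the permutations can give, adjusted 0.00015; rho 0.73, p = 1e-05). It was 0.66 without the 2 farthest tumours and 0.74 without DOS.56. PSMB5 correlated with PSME2 at r = 0.74 (p = 4e-05, adjusted 0.0003; rho 0.47, p = 0.0104) and with PSME1 at r = 0.67 (p = 0.00023, adjusted 0.00069; rho 0.46, p = 0.0123). Without the 2 farthest tumours the first was 0.53 and remained past the threshold, and the second was 0.38 with an adjusted permutation p of 0.0958. PSMB5 and PSMB6 correlated at r = 0.65 (p = 0.00017, adjusted 0.000637; rho 0.60, p = 0.00085) and at 0.64 without the 2 farthest.

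PSMB6 with PSME2 was the last of the 9 pairs, at r = 0.45 (p = 0.0136, adjusted 0.0255; rho 0.34, p = 0.0753), and 0.38 without the 2 farthest, where it no longer passed. PSME3, the activator that interferon gamma does not induce, passed with none of the other 5 genes, with r between -0.13 and 0.18.

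The subunits were also set against single genes of interferon signalling, immune cells and proliferation. Of 54 relations (6 subunits with 9 genes, among them IRF1, TAP1, ISG15, CD2, PTPRC, TYROBP, C1QC and MKI67), 7 passed the adjusted threshold. PSME1 correlated with ISG15, an interferon-induced modifier, at r = 0.64 (p = 8e-05, adjusted 0.0027; rho 0.57, adjusted 0.0196) and with TAP1, the peptide transporter of MHC class I, at r = 0.58 (p = 0.00063, adjusted 0.0104; rho 0.53, adjusted 0.0336). PSME2 correlated with ISG15 at r = 0.66 (p = 0.0001, adjusted 0.0027; rho 0.60, adjusted 0.0196), with TAP1 at r = 0.58 (p = 0.00077, adjusted 0.0104; rho 0.49, adjusted 0.0599) and with CD2, a T cell surface protein, at r = 0.56 (p = 0.00115, adjusted 0.0124; rho 0.46, adjusted 0.0718). PSME1 with IRF1 gave r = 0.50 (p = 0.00765, adjusted 0.0516; rho 0.60, adjusted 0.0196), past the threshold by rho and not by r. All p-values are from permutation.

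For PSMB10 only CD2 passed, at r = 0.50 (permutation p = 0.00574, adjusted 0.0443; rho 0.40, adjusted 0.135). It passed in 0 of 7 alternative settings, with r between 0.40 and 0.49 and an adjusted permutation p between 0.0622 and 0.18. PSMB10 gave r = 0.20 with TAP1, 0.29 with ISG15 and 0.20 with IRF1, none past the threshold. PSME3 correlated with the proliferation marker MKI67 at r = 0.57 (permutation p = 0.00144, adjusted 0.013; rho 0.59, adjusted 0.0196), and PSMB5 and PSMB6 passed with none of the 9 genes. Differences between these correlations were not tested.

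A single tumour bore on several of them. DOS.56 held the highest PSME1 and PSME2, and without it 3 of 54 relations passed: PSME1 with ISG15 (r = 0.61), PSME2 with ISG15 (r = 0.62) and PSME3 with MKI67 (r = 0.56). Without the 2 tumours farthest from each subunit's median, both ISG15 relations held (r = 0.59 for PSME1 and 0.60 for PSME2). TAP1 was 0.42 with PSME1 and 0.42 with PSME2 (adjusted permutation p 0.18 each), and CD2 with PSME2 was 0.47 (adjusted permutation p 0.12). CD2 with PSMB10 was 0.42 (adjusted permutation p 0.18) and MKI67 with PSME3 was 0.41 (adjusted permutation p 0.18). In bulk tissue, fewer cells of a type and less RNA per cell cannot be told apart.

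**Figure D3:**
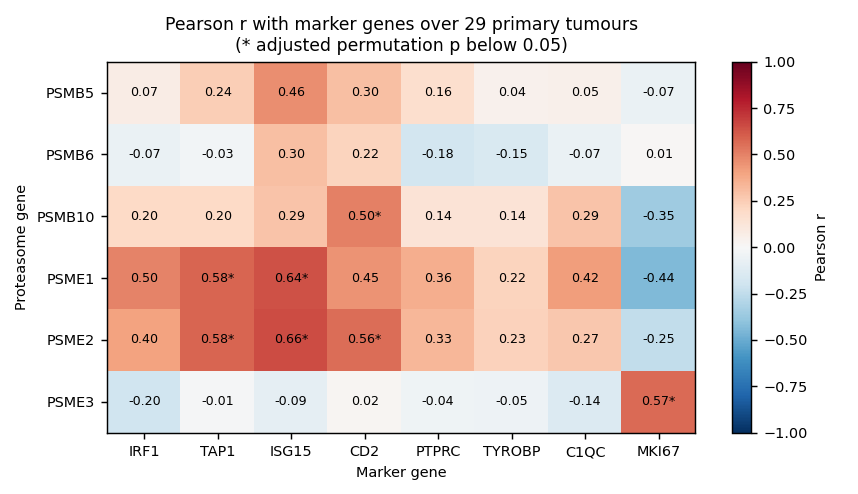
Pearson correlation over the 29 primary tumours of 6 proteasome genes (rows) with 8 marker genes (columns), with r written in each cell and a star where the adjusted permutation p was below 0.05. PSME1 and PSME2 correlated with ISG15 and TAP1, PSME2 and PSMB10 with CD2, the second of these in no alternative setting, and PSME3 with MKI67.

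The genes most like each subunit over the tumours were taken by Pearson r among genes with a symbol. For PSMB10 the 10 most alike were C16ORF91 (r = 0.78), MRPL42, NDUFA12, BLOC1S5, ZNF684, DNAJC19, LAMTOR5, C1ORF122, BCL7C and GLMN (r = 0.70). MRPL42 is a protein of the mitochondrial ribosome, and NDUFA12 one of respiratory complex I. The lists for the activators were added after their values were seen. For PSME1 the 10 were PSME2 (r = 0.85), IFI44 (r = 0.70), SUSD3, MRPL52, GBP6, IFI44L, DAD1, PSMB5, HERC6 and PTP4A2 (r = 0.65). For PSME2 they were PSME1, NEDD8 (r = 0.81), HDHD2, SUSD3, PSMB5 (r = 0.74), IDO1 (r = 0.72), DAD1, CACYBP, SRP9 and MRPL42 (r = 0.68), the last also in the list of PSMB10.

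Some of the most alike genes lay close to the subunit on its chromosome, by the order of genes in the dog RefSeq assembly UU_Cfam_GSD_1.0. PSME1 and PSME2 have 1 gene between them there, and PSMB5, on the same chromosome, lies 33 genes away from PSME1. For 35 members the 10 most alike genes were listed, and 315 of the 350 were found in the assembly. Of those, 129 (41.0%) lay on the member's own chromosome, which holds on average 3.86% of the named genes.

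The same share was 22.4% over all 10912 named genes treated alike, and 28.5% over the 5670 with a mean of at least 10 FPKM. At least 1 such gene was listed for 31 of 35 members (88.6%), against 66.0% and 74.6% of the genes in those sets. All 10 genes most like PSMC2 shared its chromosome, led by PMPCB at r = 0.90, whereas PSMB10 had 0 of 7. PSMB10 does share its chromosome with 2 constitutive subunits, PSMB6 and PSMD7. Its median r was 0.52 with those 2 and 0.34 with the 23 on other chromosomes. Constitutive pairs on 1 chromosome had a median r of 0.62 (21 pairs), and pairs on different chromosomes 0.40 (279 pairs). The closest pair, PSMC4 with PSMD8, is among the 21, and the next, PSMA7 with PSMD8, is among the 279. These shares were computed after the lists were seen and carry no test, and DNA copy number was not measured.

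Between the 2 lines and the 29 tumours, 7 of the 36 proteasome genes passed the test. Of these 5 rose in the lines, PSMA7, PSMB5, PSMB6, PSME3 and PSMF1, and 2 fell, PSME4 and PSMG2. Of all 15165 genes 8.49% rose and 7.92% fell by the same rule (limma, Benjamini-Hochberg over all genes, adjusted p below 0.05), so 5 of 36 higher and 2 of 36 lower are not far from what the genes at large gave. Over the 25 constitutive subunits 3 rose, 0 fell and the median log2 fold change was 0.31, against -0.05 over all genes. At an unadjusted limma p below 0.05 it was 5 higher and 3 lower. Shares of all genes at an unadjusted p were not computed, here or below, so such counts have no comparison. Of PSMB10, PSME1 and PSME2, 0 of 3 passed, and 0 of 3 did at the unadjusted p.

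The inhibitor and 1 activator separated the lines from every tumour. PSMF1 had 77.8 FPKM in OSCA.8 and 102 FPKM in OSCA.78, against 30.3, 44.0 and 66.3 FPKM in the lowest, median and highest tumour. Both lines lay above all 29 tumours, as 4.04% of all genes did, and the log2 fold change was 1.02 ± 0.23 (SE, limma, adjusted p = 0.00254). PSME4 had 11.3 FPKM in OSCA.8 and 6.99 FPKM in OSCA.78, against 12.2, 20.2 and 39.7 FPKM in the tumours. Both lines lay below all 29 tumours, as 7.3% of all genes did (log2 fold change -1.14 ± 0.29, limma adjusted p = 0.00598).

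The constitutive subunits that rose belong to the core. PSMB5, which carries the chymotrypsin-like site, had 90.7 FPKM in OSCA.8 and 104 FPKM in OSCA.78, against 35.2, 46.6 and 103 FPKM in the lowest, median and highest tumour (log2 fold change 0.93 ± 0.30, limma adjusted p = 0.0330). OSCA.78 lay above all 29 tumours and OSCA.8 above 26. PSMB6, which carries the caspase-like site, had 351 FPKM in OSCA.8 and 384 FPKM in OSCA.78, against 80.2, 166 and 353 FPKM in the tumours (1.10 ± 0.39, limma adjusted p = 0.0491). PSMA7 had 161 FPKM in OSCA.8 and 169 FPKM in OSCA.78, against 45.4, 80.6 and 161 FPKM in the tumours (1.03 ± 0.34, limma adjusted p = 0.0320). In all of these the lines sat at the upper edge of the tumours, and the groups overlapped by 1 to 3 tumours.

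PSME3 had 53.3 FPKM in OSCA.8 and 79.6 FPKM in OSCA.78, against 18.6, 34.1 and 72.0 FPKM in the lowest, median and highest tumour (log2 fold change 0.93 ± 0.31, limma adjusted p = 0.0373). The proliferation marker MKI67, with which PSME3 correlated across tumours, also rose, with 21.2 FPKM in OSCA.8 and 86.8 FPKM in OSCA.78, against a tumour median of 11.3 FPKM (2.03 ± 0.70, limma adjusted p = 0.0436). Its part in the PSME3 result was not tested. The chaperone PSMG2 had 14.8 FPKM in OSCA.8 and 17.7 FPKM in OSCA.78, against 17.3, 33.5 and 72.8 FPKM in the tumours (-1.01 ± 0.33, limma adjusted p = 0.0348). Both lines lay at the low end, OSCA.78 above 1 tumour.

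The immune members showed no shift that the test called. PSMB10 had 20.6 FPKM in OSCA.8 and 33.0 FPKM in OSCA.78, against 14.3, 30.7 and 67.8 FPKM in the lowest, median and highest tumour. Both lines lay inside the tumour range, on opposite sides of the median (log2 fold change -0.25 ± 0.38, limma adjusted p = 0.694). PSME1 had 28.1 FPKM in OSCA.8 and 24.6 FPKM in OSCA.78, against 11.2, 18.8 and 61.4 FPKM in the tumours (0.39 ± 0.34, limma adjusted p = 0.467). PSME2 had 116.1 FPKM in OSCA.8 and 47.8 FPKM in OSCA.78, against 44.4, 70.7 and 345 FPKM (-0.05 ± 0.48, limma adjusted p = 0.957). Errors of this size leave room for differences in either direction.

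Each line was also set against the tumours on its own. OSCA.8 lay above every tumour in 1 of 36 members and below every tumour in 2, where 6.47% and 10.6% of all genes did. OSCA.78 lay above every tumour in 9 of 36 and below every tumour in 6, where 14.4% and 18.3% of all genes did. Of the 36 tested, 13 lay on opposite sides of the tumour mean in the 2 lines, among them 10 of the 25 constitutive subunits, against 28.4% of all genes. The largest gaps were in PSMC6, with 166 FPKM in OSCA.8 and 20.7 FPKM in OSCA.78 beside a tumour median of 107 FPKM, and in PSMD14, the deubiquitinase of the cap, with 93.2 and 18.6 FPKM beside a tumour median of 87.1 FPKM. PSMA3 had 100.8 FPKM in OSCA.8 and 27.1 FPKM in OSCA.78 beside 97.1 FPKM. OSCA.78 was below every tumour in PSMC6, PSMD14 and PSMA3, and OSCA.8 lay within the range of the tumours in all of them. None passed the test on both lines (limma adjusted p 0.125, 0.0803 and 0.134).

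The calls were fewer with 1 line or another scaling. A lone line is assumed to vary like the tumours, which alone give the spread. Without OSCA.78 far fewer genes of any kind were called, so the lack of calls among the 36 is no result about the proteasome genes. All 7 kept their direction there, with log2 fold changes such as 0.99 for PSMA7, 1.04 for PSMB6, 0.64 for PSME3 and -1.13 for PSMG2. Without OSCA.8 fewer genes were called as well, and the log2 fold changes were -1.45 for PSME4 and 1.21 for PSMF1. They were -1.86 for PSMA3, -2.39 for PSMC6 and -2.24 for PSMD14, which were low in OSCA.78. With the libraries scaled to a common upper quartile, PSME4, PSMF1 and PSMG2 passed and the others did not, with log2 fold changes of 0.81 to 0.98 and limma adjusted p between 0.0657 and 0.0933. Of all 15165 genes 962 rose and 1388 fell with that scaling. After quantile normalisation PSME3 did not pass (limma adjusted p = 0.0805). PSMB6 did not pass with no filter on expression (limma adjusted p = 0.0589) or without tumour DOS.115 (limma adjusted p = 0.0534).

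**Figure D4:**
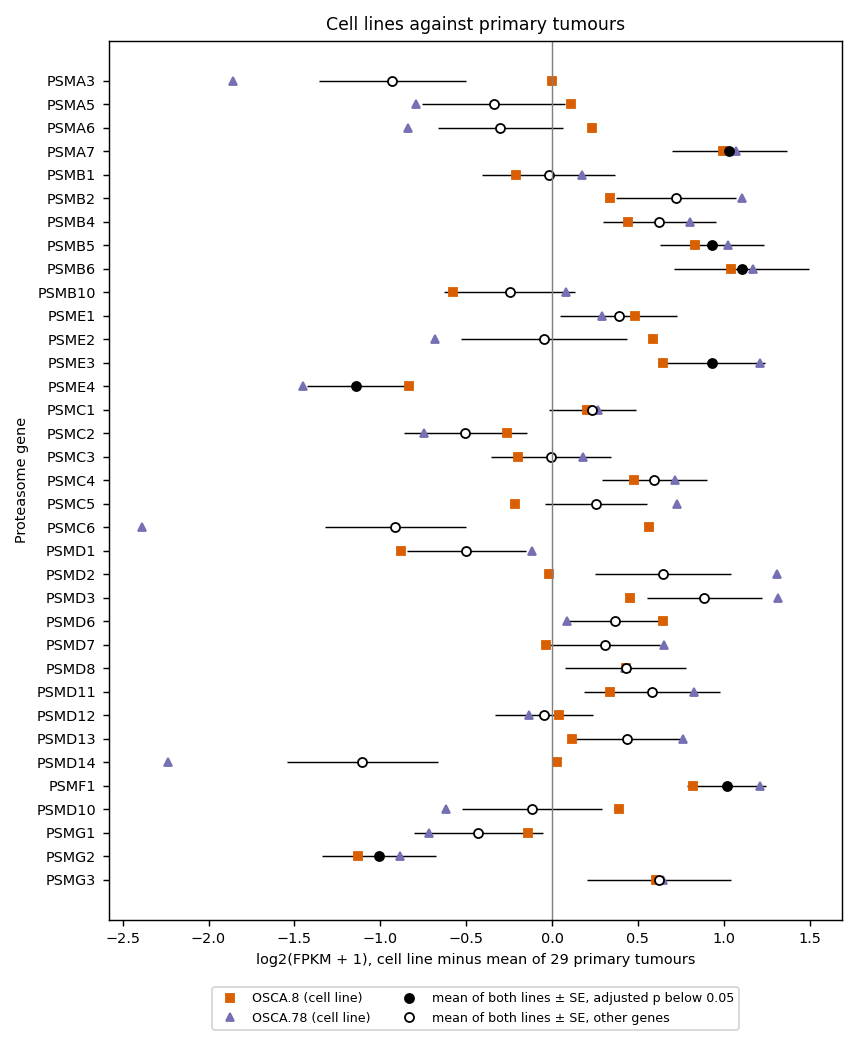
Log2 fold change of the 2 lines over the 29 primary tumours for the same 35 genes (circles, filled where the adjusted p was below 0.05), with limma standard errors as bars, and each line's own difference from the tumour mean as a square or triangle. PSMF1 (1.02) and PSME4 (-1.14) lie farthest from 0 relative to their errors, and the 2 lines part most in PSMC6 and PSMD14.

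PSMB10 was low relative to PSMB5 and PSMB6 in the lines, as a ratio within each sample. Other core subunits had lower fold changes than PSMB10 in the lines, among them PSMA3 at -0.93. Since the counterpart PSMB7 has no row, PSMB10 was set against PSMB5 and PSMB6, which it does not replace in the particle, and this pairing was chosen after it was seen which genes have rows. The log2 ratio of PSMB10 to PSMB6 was -4.03 in OSCA.8 and -3.50 in OSCA.78, beside -3.88, -2.44 and -1.51 in the lowest, median and highest tumour. OSCA.8 lay below all tumours and OSCA.78 above 1 of 29, DOS.84. The difference in mean log2 ratio, lines minus tumours, was -1.35 (exact two-sided permutation test over the 465 ways to draw 2 of 31 samples, p = 0.00430, adjusted over 4 ratios 0.0129, smallest possible p 0.00215).

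The log2 ratio of PSMB10 to PSMB5 was -2.09 in OSCA.8 and -1.62 in OSCA.78, beside -2.11, -0.61 and 0.30 in the tumours. Here too 1 tumour, DOS.84, lay below the lines. The difference was -1.18 (exact permutation p = 0.00645, adjusted 0.0129). Each difference equals the log2 fold change of PSMB10 (-0.25) less that of PSMB5 (0.93) or PSMB6 (1.10). With OSCA.8 alone they were -1.62 to PSMB6 and -1.41 to PSMB5, and with OSCA.78 alone -1.09 and -0.94. Neither ratio passed the test with a single line (adjusted exact permutation p = 0.133 in each case). The tumour with the lowest ratios, DOS.84, had the lowest PSMB10 of all (14.3 FPKM).

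For the activators the ratio to PSME3 did not pass. The log2 ratio of PSME1 to PSME3 was -0.90 in OSCA.8 and -1.66 in OSCA.78, beside a tumour median of -0.74 (difference -0.54, exact permutation p = 0.239, adjusted 0.239). That of PSME2 to PSME3 was 1.11 in OSCA.8 and -0.73 in OSCA.78, beside a tumour median of 0.98 (difference -0.98, exact permutation p = 0.116, adjusted 0.155).

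Leukocytes carry immunoproteasome, so their markers were set beside PSMB10. The 11 measured T cell genes summed to 1.80 FPKM in OSCA.8 and 1.05 FPKM in OSCA.78, against 6.07 to 160 FPKM (median 22.4) in the primary tumour libraries. All 11 had negative fold changes in the lines and 1 passed the test, where 7.92% of all genes were called lower. CD3D, GZMA, GZMB, GZMK and TRAC were at 0 in both lines, and CD2 and CD5 in OSCA.8. The 5 pan-leukocyte genes summed to 21.8 and 18.7 FPKM in OSCA.8 and OSCA.78, against 10.9 to 183 FPKM, so that both lines lay inside the tumour range, and 4 of 5 were called lower. CORO1A was not, with a log2 fold change of -0.02 (limma adjusted p = 0.987). CD48 was at 0 in both lines, CD53 in OSCA.8 and PTPRC in OSCA.78. Of the 10 macrophage genes 10 were called lower, with TYROBP at 0 in OSCA.78. The part of these cells in the tumour level of PSMB10 and in its ratios was not tested.

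Genes of the interferon response were mixed in the lines. Of 20 measured genes 7 rose and 0 fell, where 8.49% of all genes rose and 7.92% fell, and 13 were not called. Of those, 6 had negative fold changes, from -0.81 for IFIT1 to -1.26 for IFIT2. The list summed to 573 FPKM in OSCA.8 and 2537 FPKM in OSCA.78, against 104 to 619 FPKM (median 188) in the primary tumour libraries. OSCA.8 lay inside that range, with 343 FPKM from ISG15, and OSCA.78 above it. The largest log2 fold changes were those of ISG15 (5.29 ± 1.09, limma adjusted p = 0.00110), CMPK2 (2.83 ± 0.60, limma adjusted p = 0.00124) and OAS1 (2.74 ± 0.62, limma adjusted p = 0.00254). OSCA.78, with the higher interferon sum, had 47.8 FPKM of PSME2 and 24.6 FPKM of PSME1, less than the 116.1 and 28.1 FPKM of OSCA.8. PSMB10 went the other way, with 33.0 FPKM in OSCA.78 and 20.6 FPKM in OSCA.8. Of the 6 measured genes of antigen processing 0 passed (1 at an unadjusted limma p below 0.05, ERAP2, with a log2 fold change of -0.88), and TAP1 had 26.5 FPKM in OSCA.8 and 67.1 FPKM in OSCA.78 beside a tumour median of 27.98 FPKM.

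**Figure D5:**
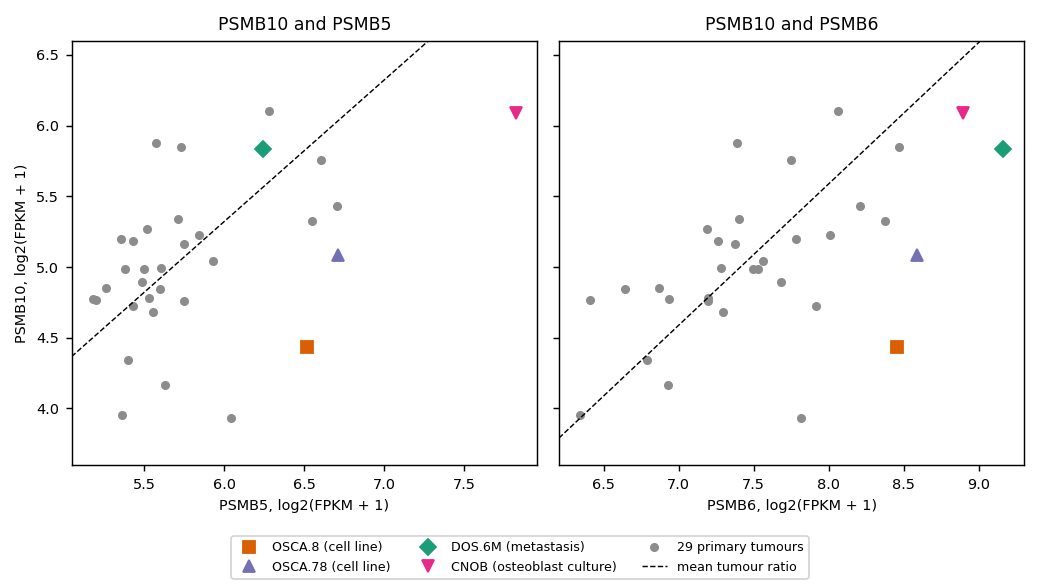
PSMB10 against PSMB5 (left) and against PSMB6 (right), each as log2(FPKM + 1), with 1 point per sample. The dashed line marks the mean tumour ratio. Both lines and the osteoblast culture lie below it in both panels, and the metastasis lies below it only against PSMB6.

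Genes that work with the proteasome were read beside the 16.4% of all genes called in either direction. Of 9 measured partners 1 rose, ADRM1, a ubiquitin receptor of the cap, with 163 FPKM in OSCA.8 and 305 FPKM in OSCA.78, against 75.1, 110.98 and 210 FPKM in the tumours (log2 fold change 0.90 ± 0.30, limma adjusted p = 0.0396). UCHL5, the deubiquitinase that binds ADRM1, had -0.89 ± 0.39 (limma adjusted p = 0.111), and PITHD1 -0.54 ± 0.31 (limma adjusted p = 0.238). Of the 6 measured genes that control transcription of the subunits 0 passed, and NFE2L1 and NGLY1 did at an unadjusted limma p below 0.05. NFE2L1, the factor that raises subunit transcription when proteasomes are inhibited, had 126 FPKM in OSCA.8 and 113.98 FPKM in OSCA.78, against 24.7, 61.0 and 106 FPKM in the tumours, so that both lines lay above every tumour (1.03 ± 0.38, limma adjusted p = 0.0577).

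NGLY1, the enzyme that removes sugars from NFE2L1, had 7.01 FPKM in OSCA.8 and 3.38 FPKM in OSCA.78 beside a tumour median of 11.6 FPKM (-1.07 ± 0.39, limma adjusted p = 0.0569). NFE2L2 had a log2 fold change of -0.86 ± 0.53 (limma adjusted p = 0.275). Of the 9 measured genes that make or carry ubiquitin 0 passed, adjusted or not. SQSTM1, a receptor of selective autophagy, had a log2 fold change of 0.67 ± 0.43 and UBQLN4, a ubiquitin shuttle, of -0.36 ± 0.35.

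The osteoblast culture is 1 library with no test, and it has the highest column sum of all libraries, 1418308 FPKM. The 37 rows other than PSMC3IP took 0.339% of that sum, inside the range of the tumours. Of the 36 members 12 lay above all 29 tumours and 6 below all, where 22% and 19.5% of all genes did, so that a position outside the tumour range was common among all genes in this library. Among the 25 constitutive subunits 10 lay above and 2 below. PSMB5 had 226 FPKM in the osteoblast culture, against at most 103 FPKM in a tumour, PSMD8 had 610 FPKM against at most 315 FPKM, and PSMF1 had 159 FPKM against at most 66.3 FPKM. PSMD14 had 33.9 FPKM and PSMA5 17.5 FPKM, both below every tumour.

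PSMB10 in the osteoblast culture reached 67.2 FPKM, above 28 of 29 tumours. Its log2 ratio to PSMB5 was nevertheless -1.73, below all tumours but 1, and its log2 ratio to PSMB6 was -2.80, above 3 of 29. PSME1 had 32.1 FPKM and PSME2 103 FPKM, above 27 and 23 of 29 tumours. The interferon list summed to 108 FPKM in that culture, near the bottom of the tumour range, with IRF7, IFIT3, IDO1 and RSAD2 at 0, and the T cell list to 2.76 FPKM, with CD3D, CD5, GZMA, GZMB and GZMK at 0. PSME4 had 11.1 FPKM and PSMG2 13.99 FPKM, both below every tumour, and PSME3 had 73.4 FPKM, above every tumour. PSMA7 had 236 FPKM and PSMB6 476 FPKM, also above every tumour, as were PSMB5 and PSMF1. Every gene called in the lines thus lay outside the tumour range in this culture, on the same side as in the lines. Of all genes, 22% lay above every tumour in this culture and 19.5% below. The cell cycle list summed to 13.2 FPKM in the osteoblast culture, 381 FPKM in OSCA.8 and 727 FPKM in OSCA.78. In the lines 3 of its 9 measured genes were called higher, where 8.49% of all genes were. The other 6 were not called, and 2 of the 9 had negative fold changes.

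In the metastasis, also 1 library, 2 of 36 members lay above every tumour and 0 below, where 5% and 3.53% of all genes did. PSMB6 had 572 FPKM in the metastasis, against at most 353 FPKM in a tumour, and PSMD7, a lid subunit, had 49.7 FPKM against at most 47.3 FPKM. PSMB10 had 56.2 FPKM, above 26 of 29 tumours, and its log2 ratio to PSMB6 was -3.32, above 1 tumour. The T cell list summed to 111.2 FPKM in the metastasis, in the upper part of the tumour range.

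The primary tumour with the same title number, DOS.6, held the highest PSMB6 among the tumours (353 FPKM). The deviations of the 2 libraries from the tumour mean correlated at r = 0.51 over the tested genes, against at most 0.195 between the metastasis and another tumour, although the labels do not state that they came from 1 dog. The metastasis lay above DOS.6 in 20 of 36 members, and 48.8% of all genes did so. PSMB10 differed little between them, with 56.2 FPKM in the metastasis and 56.5 FPKM in DOS.6. PSMB5 had 74.8 FPKM in the metastasis and 52.0 FPKM in DOS.6, PSME2 had 118 and 132 FPKM, and PSMF1 had 47.8 and 31.3 FPKM.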

How the data were processed

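RNA of 34 dog libraries was measured by sequencing (TruSeq RNA v2, per the labels). The authors deposited 1 table of expression values read here as FPKM, since its header gives no unit; per the submitters' processing notes, FastQC 0.11.2, TopHat2 2.0.13, Cufflinks 2.2.1 and canFam3 were used. The sources used here do not state their order, the gene annotation or the filter behind the table. No read counts were at hand, so depth is unknown and no count test or interval was computed.

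Genes that reached 1 FPKM in 2 or more libraries were tested on log2(FPKM + 1) with limma 3.58.1 in R 4.3.3 (trend and robust options), with Benjamini-Hochberg adjustment over 15165 genes. Ratios and correlations used exact or 100000-draw permutation tests in Python 3.11.15 with scipy 1.17.1 and numpy 2.4.6, the scripts having been tested on simulated data. DOS.46 and DOS.46.2 were averaged on the log2 scale. The members, lists and tests were chosen with earlier results of these data known. Values per sample are given for the catalytic beta and activator subunits, the members called in the lines and those with the 3 largest and 3 smallest SDs; other members named were chosen after their values were seen, and of each gene list the 3 largest changes are named, except where a gene is not reported here. The RefSeq table (assembly UU_Cfam_GSD_1.0) differs in build from the files and served for names and gene order, not coordinates. Protein and promoter sequences were not used here.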

Additional observations from a re-analysis of the deposited data

How the results depend on the processing

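The main limits are 2 lines of 1 library each, unknown depth, and missing symbols for the genes PSMB7, PSMB8 and PSMB9, so that the planned ratios of each immune subunit to its own counterpart were not run and other pairs, chosen after seeing the data, took their place. Proteasome genes called higher in the lines numbered 5, with 1 under upper quartile scaling and 3 under the replicate block of the shared title numbers 8 and 78, and those called lower numbered 2, with 4 under the block. Leaving out 1 line gave 0 to 1 members higher and 0 to 4 lower, and over all genes 199 to 979 higher and 145 to 1019 lower. The split of all genes was 1288 higher and 1201 lower, and it was 962 and 1388 under upper quartile scaling, 1121 and 1639 with 0.1 FPKM added and 1341 and 1000 after quantile normalisation. Leaving out 1 line at a time, the PSMB10 to PSMB5 difference ranged from -1.41 to -0.94 and the PSMB10 to PSMB6 difference from -1.62 to -1.09. Neither passed with 1 line, where the exact test has too few draws to decide. Each line minus the tumour of the same number gave -0.85 for PSMB10 to PSMB6, a value with no test. The numbers were not taken to pair the samples, since the labels state no shared dog and 2 lines give only 1 difference to check (r = 0.19 with DOS.8 and 0.16 with DOS.78). The block kept 5 of the 7 calls, lost PSMB5 (adjusted limma p 0.0571) and PSMB6 (0.0996) and added PSMA3 and PSMD14, both lower. PSMB5 with PSMB10 was not past the threshold without the 2 farthest tumours (r = 0.33), after quantile normalisation (0.38) and without DOS.56 (0.36), nor PSMB6 with PSMB10 without the 2 farthest (0.44), where 5 of the 9 pair relations passed. Marker relations past the threshold numbered 7, with 3 without DOS.56 and 3 without the 2 farthest tumours. Those were PSME1 and PSME2 with ISG15 and a negative relation of PSME1 with MKI67 (r = -0.58, adjusted permutation p 0.0256; rho over all tumours -0.55, adjusted 0.026; r over all tumours -0.44, adjusted 0.0754). Of the members with no call, PSME2 ranged from -0.68 to 0.58 and PSMB10 from -0.58 to 0.081 on leaving out 1 line, and PSME2 was 0.00062 without DOS.101; the cause was not tested. The other 129 values of the main results under an alternative kept their direction and side of the threshold or stayed within the spread, as did 408 values of single genes and pairs, of which 41 others no longer passed and 4 newly passed.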
